A study of Homo sapiens with 30 samples.

Results

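DNA replication in dividing cells was read here through 39 genes, chosen by their symbols, that build the replication fork, load and start it, supply its deoxynucleotides or control entry into S phase. The Ensembl identifiers of the deposited table were matched to the 39 symbols, and all 39 were found once among 61597 genes. All 39 also passed the minimum level for testing, as 39 of the 15137 genes tested. The cells were LX2, a human cell line derived from hepatic stellate cells, which lay down scar matrix in the liver once activated.

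Before an S phase, the origin-bound factors CDC6 and CDT1 load the MCM2 to MCM7 ring, the replicative helicase, onto DNA, and CDC45 and the GINS complex then turn it into a moving helicase. Polymerase alpha and its primase start each new strand, the clamp PCNA and its loader RFC tether the polymerases delta and epsilon, RPA covers single strands, and FEN1 and LIG1 join Okazaki fragments. Many of these genes are transcribed in late G1 under the E2F factors, so in a growing culture their RNA is commonly read together with the share of cells in cycle.

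Cells received the fatty acid vehicle (Veh), oleic acid (OLA) or docosahexaenoic acid (DHA). Each acid was given at 50 µM, carried by 20 µM albumin, over 2 rounds of 48 h (96 h by the protocol, against 72 h in a sample field). Whether the vehicle held albumin or was given over the same rounds is not stated in the sources used here. All cells were then kept in medium with 1% serum for 72 h, without or with betacellulin (BTC, a ligand of ErbB receptors) at 20 ng/ml. The 6 groups are written as pretreatment and then treatment: Veh+Veh had neither agent, Veh+BTC had BTC alone, OLA+Veh and DHA+Veh had the fatty acid alone, and OLA+BTC and DHA+BTC had both. Each group held 5 libraries, 1 from each of 5 experiments, and a number after a group is its experiment. RNA was counted near the polyadenylated end of transcripts, so values in CPM (reads of a gene per 1000000 counted reads of its library) carry no length correction and levels are compared within a gene only.

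Library totals ran from 1245182 to 9490142 reads (median 3683035). The DHA libraries held 3028129 ± 1074169 reads against 4515158 ± 1933237 for vehicle and 4200426 ± 818122 for oleic acid (SD, n = 10 each), and the 3 shallowest of all were DHA libraries (both of experiment 5 and DHA+BTC 4). At 0 reads, levels of up to 0.316 CPM in the deepest library and 2.41 CPM in the shallowest remain possible, counting error only. Within each of experiments 3, 4 and 5 both DHA libraries also held a higher share of ribosomal protein reads than both vehicle libraries. Over these experiments that share was 12.3% to 15.1% with DHA, against 9.87% to 13.0% with vehicle. The same held for the share of their 10 most abundant genes (9.95% to 12.5%, against 7.43% to 9.99%). In experiments 1 and 2 neither held. All 8 activated stellate markers had reads in all 30 libraries, while TTR and CD3E were at 0 in 30 of 30 and ALB in 29. Some markers of other cell types were present: CD14, CDH1 and KRT7 reached 1 CPM in 30 libraries, and CD68 and PECAM1 in 29. By the test described below (DHA against vehicle, averaged over BTC), 8.38% of all genes tested fell and 2.33% rose. Of the markers, 5 of 8 stellate ones fell, 1 of 4 leukocyte ones fell, 1 of 4 epithelial ones rose and 0 of 2 endothelial ones changed. No hepatocyte marker was abundant enough to test. The summed stellate markers lay at 1398 to 3837 CPM with vehicle, 1125 to 3601 with oleic acid and 662 to 3118 with DHA. The same ranges were 11.0 to 53.5, 14.7 to 55.0 and 8.20 to 53.9 CPM for leukocyte markers, 12.2 to 81.3, 18.9 to 39.9 and 29.8 to 162 for epithelial ones, 0.591 to 9.69, 2.48 to 47.0 and 1.78 to 10.8 for endothelial ones, and 0 to 1.56, 0 to 5.25 and 0 to 4.10 for hepatocyte ones. The part of depth, of these shares and of these markers in the results below was not tested. In bulk RNA, fewer cells in S phase and less RNA per cell cannot be told apart.

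The promoters were searched for E2F motifs. RefSeq windows of 300 bases (250 before to 50 after a transcript start, GRCh38.p14) were matched for 33 of the 39 genes. An E2F motif, searched as TTTGGCGC, TTTCCCGC, TTTCGCGC or TTTGCCGC on both strands, was present for 19 of these 33 (57.6%), against 3.99% of all 27305 genes in that table. It was found for 11 of the 16 matched members that fell with DHA and for 8 of the 17 that were not called. Whether these shares differ was not tested. To let the motif be read in place, the 4 members with the smallest p for DHA and a match upstream of the start are shown, with MCM6 added after its 4 matches were seen. The match of GINS1 lies past its start and is not shown, and MCM7 has another match farther upstream. Capitals mark the motif, on either strand, and each line runs 5′ to 3′ along the gene.
MCM7, chr7:100101398-100101466, minus strand: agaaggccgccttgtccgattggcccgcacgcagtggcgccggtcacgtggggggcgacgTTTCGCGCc
RFC3, chr13:33818074-33818121, plus strand: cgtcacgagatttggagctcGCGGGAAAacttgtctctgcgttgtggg
POLA2, chr11:65261889-65261936, plus strand: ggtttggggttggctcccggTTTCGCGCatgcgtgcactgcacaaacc
TYMS, chr18:657594-657641, plus strand: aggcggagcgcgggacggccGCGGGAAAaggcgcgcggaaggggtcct
MCM6, chr2:135876502-135876615, minus strand: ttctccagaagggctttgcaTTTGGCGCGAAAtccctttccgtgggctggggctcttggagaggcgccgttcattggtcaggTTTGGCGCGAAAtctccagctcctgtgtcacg
All 5 stretches lie upstream of the annotated start. In MCM6 each of 2 capital stretches is a match on one strand that overlaps a match on the other. A CCAAT box was as frequent, for 19 of 33 members against 39.7% of all genes. The CHR element of mitotic genes, searched as TTTGAA on both strands, was found for 1 of 33 members, against 18.2% of all genes and 11 of 16 matched genes of a mitosis list. A match is a description of the sequence and not of binding.

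DHA lowered a large share of the replication genes. Averaged over BTC, 18 of 39 fell against vehicle and 0 rose (limma on log2(CPM + 1) with the experiment as a term, adjusted p under 0.05 over all genes tested), where 10.7% of all genes tested were called (8.38% fell and 2.33% rose). The median log2 difference of the 39 was -0.41, against -0.13 for all genes tested, and 34 of 39 lay below 0. Falls were found in helicase subunits (5 of 6), loading and activation factors (5 of 8), clamp and clamp loader (3 of 6), deoxynucleotide supply (2 of 3), polymerases and primase (2 of 7) and RPA (1 of 3). They were found in neither of the 2 Okazaki genes, in none of the 3 S-phase regulators and not in UHRF1. The sum of the 39 was 4700 ± 454 CPM with vehicle, 4639 ± 296 with oleic acid and 3760.0 ± 498 with DHA (SD, n = 10 each).

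**Figure D1:**
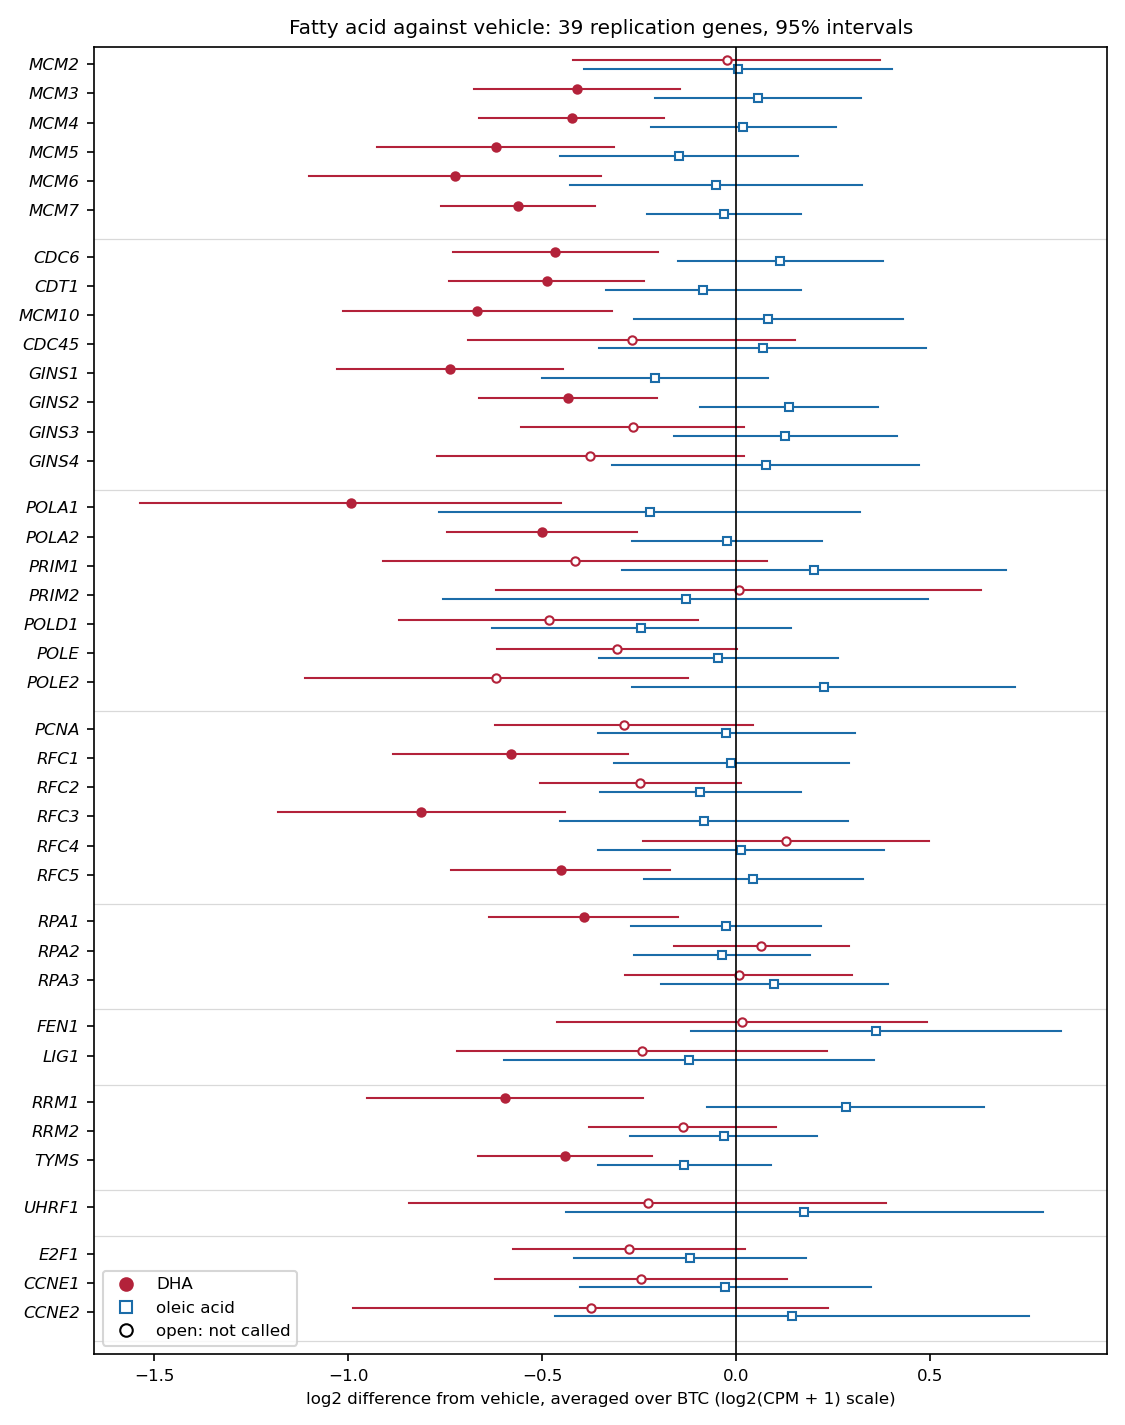
Log2 differences of the 39 genes from vehicle, averaged over BTC, with 95% intervals from limma: DHA in red circles, oleic acid in blue squares, genes grouped by role from helicase at the top to S-phase regulators at the bottom. Filled symbols mark the 18 genes that fell with DHA, and no oleic acid symbol is filled.

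Among the helicase subunits, MCM7 had the smallest p. Its level in experiments 1 to 5 was 265, 395, 531, 495 and 531 CPM in Veh+Veh and 397, 390.0, 573, 497 and 567 CPM in Veh+BTC. With oleic acid it was 326, 371, 544, 532 and 432 CPM without BTC and 314, 358, 517, 529 and 637 CPM with it. With DHA it was 242, 326, 332, 326 and 331 CPM without BTC and 245, 292, 319, 339 and 335 CPM with it. In every experiment both DHA libraries lay below both vehicle and both oleic acid libraries, although the lowest vehicle library, from experiment 1, overlapped the DHA range as a whole. The log2 difference from vehicle was -0.56 ± 0.10 (SE; 1.48-fold lower; limma adjusted p = 0.000267; lower in 5 of 5 experiments).

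MCM6, another ring subunit, had the largest fall of the helicase at -0.72 ± 0.18 (limma adjusted p = 0.0097), from 23.4 ± 9.92 to 14.9 ± 8.37 CPM (SD, n = 10 each). MCM5 (-0.62), MCM4 (-0.42) and MCM3 (-0.41) also fell, with limma adjusted p-values of 0.00677 to 0.0383. MCM2 stood at -0.02 with an interval from -0.42 to 0.37, and its values turn on 3 libraries described further on.

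Of the factors that load and switch on the helicase, GINS1, a subunit of the GINS complex, had the smallest p. It was at 53.6, 87.9, 64.6, 51.0 and 61.0 CPM in Veh+Veh of experiments 1 to 5 and at 63.0, 91.4, 75.1, 33.1 and 91.3 CPM in Veh+BTC. After oleic acid it was at 42.1, 69.2, 47.5, 30.1 and 88.1 CPM without BTC and 41.0, 79.4, 78.1, 36.3 and 83.5 CPM with BTC. After DHA it was at 30.2, 80.5, 36.0, 15.6 and 33.8 CPM without BTC and 34.4, 77.4, 35.9, 22.3 and 66.7 CPM with BTC. Both DHA libraries lay below both vehicle libraries in experiments 1 to 4, narrowly in experiment 2, and DHA+BTC 5 lay above Veh+Veh 5. The groups overlapped over all experiments, with the DHA libraries of experiment 2 among the high values. The log2 difference was -0.74 ± 0.14 (SE; 1.67-fold lower; limma adjusted p = 0.000893; lower in 5 of 5 experiments).

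The licensing factors CDC6 (-0.47, limma adjusted p = 0.0179) and CDT1 (-0.49, 0.00937) fell, as did the initiation factor MCM10 (-0.67, 0.00978) and GINS2 (-0.43, 0.0111). The remaining GINS subunits had the same sign and were not called (GINS3 -0.27, GINS4 -0.38), nor was CDC45 (-0.27, interval -0.69 to 0.15).

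Among the polymerase and primase genes, both of those called belong to polymerase alpha. POLA2, its accessory subunit, was at 53.1, 67.3, 54.1, 89.2 and 84.99 CPM in Veh+Veh and 51.0, 63.4, 64.4, 73.1 and 68.1 CPM in Veh+BTC of experiments 1 to 5. Oleic acid libraries held 54.7, 57.7, 60.5, 71.6 and 64.2 CPM without BTC and 52.3, 64.6, 74.2, 69.9 and 83.9 CPM with BTC. DHA libraries held 37.0, 55.8, 46.9, 45.8 and 59.1 CPM without BTC and 40.7, 68.8, 37.7, 37.0 and 43.4 CPM with BTC. In experiments 1, 3, 4 and 5 both DHA libraries lay below both vehicle libraries, and in experiment 2 DHA+BTC was the highest of the 6. The log2 difference was -0.50 ± 0.12 (SE; 1.41-fold lower; limma adjusted p = 0.00602; lower in 5 of 5 experiments).

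POLA1, the catalytic subunit, had the largest fall of the 39 genes, at -0.99 ± 0.27 (1.99-fold lower; limma adjusted p = 0.0143), from 21.7 ± 14.1 to 13.4 ± 12.8 CPM (SD, n = 10 each). Its experiments ran from 0.14 in experiment 1 to -2.20 in experiment 4, and the 4 DHA libraries of experiments 4 and 5 held 5 to 7 reads of it. The fall of POLA1 was not called without the 3 shallowest libraries, without experiment 3, without experiment 4 or with edgeR. The catalytic subunits POLD1 (-0.48, adjusted p = 0.0966) and POLE (-0.31, 0.198) and the epsilon subunit POLE2 (-0.62, 0.0968) were not called by limma. The primase genes PRIM1 (median 2.18 CPM) and PRIM2 (median 4.63 CPM) lay near the detection floor, with log2 differences of -0.42 and 0.01 and intervals that spanned 0.

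Of the clamp and its loader, RFC3, a small loader subunit, had the smallest p. RFC3 was at 51.2, 73.1, 16.0, 13.0 and 25.4 CPM in Veh+Veh and 52.7, 65.3, 35.2, 15.9 and 39.8 CPM in Veh+BTC of experiments 1 to 5. With oleic acid it was at 47.4, 78.3, 25.0, 10.8 and 39.03 CPM, and with oleic acid and BTC at 42.8, 57.2, 20.8, 14.2 and 29.8 CPM. With DHA it was at 28.7, 82.9, 12.7, 5.29 and 7.80 CPM, and with DHA and BTC at 30.1, 69.8, 10.8, 9.81 and 13.7 CPM. Both DHA libraries lay below both vehicle libraries in every experiment but the second, whose 6 libraries were the highest of the study and included the highest DHA value. The log2 difference was -0.81 ± 0.18 (SE; 1.75-fold lower; limma adjusted p = 0.00353; lower in 4 of 5 experiments). RFC1, the large subunit (-0.58, adjusted p = 0.0101), and RFC5 (-0.45, 0.0314) fell in limma as well, the latter in 3 of 16 other analyses only. RFC2 (-0.25, interval -0.51 to 0.01) and RFC4 (0.13, interval -0.24 to 0.50) were not called. PCNA, the clamp and a common proliferation marker, was not called at -0.29 (interval -0.62 to 0.04; limma adjusted p = 0.273), with 227 ± 82.5 CPM for vehicle and 187 ± 73.0 for DHA (SD, n = 10 each).

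Of the single-strand binding complex, RPA1, its large subunit, was called lower, though in 4 of 16 other analyses only. RPA1 was at 171, 239, 144, 160.4 and 345 CPM in Veh+Veh and 182, 208, 120.3, 160.0 and 161 CPM in Veh+BTC of experiments 1 to 5. It was at 166, 182, 136, 154 and 239 CPM with oleic acid and 181, 165, 144, 172 and 284 CPM with oleic acid and BTC. It was at 179, 178, 118, 91.9 and 153 CPM with DHA and 148, 164, 115, 90.5 and 182 CPM with DHA and BTC. The DHA libraries of experiment 4 were the 2 lowest of all 30, and the groups overlapped over all experiments. DHA differed from vehicle by -0.39 ± 0.12 on the log2 scale (SE; 1.31-fold lower; limma adjusted p = 0.0309; lower in 5 of 5 experiments). The call was lost on leaving out any of 6 single libraries (DHA+Veh and DHA+BTC of experiment 4, Veh+BTC of experiments 2 and 4, and Veh+Veh and DHA+Veh of experiment 5), with a limma adjusted p of up to 0.0801. RPA2 (0.07, interval -0.16 to 0.29) and RPA3 (0.01, interval -0.29 to 0.30) were not called.

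Neither gene of Okazaki fragment maturation was called. LIG1, the ligase that seals the fragments, was at 183, 314, 150.2, 146 and 159 CPM in Veh+Veh and 314, 182, 192, 151 and 319.8 CPM in Veh+BTC of experiments 1 to 5. It was at 203, 277, 183, 182 and 209 CPM with oleic acid and 261, 165, 133, 109 and 185 CPM with oleic acid and BTC. It was at 213, 332, 180.1, 209 and 49.4 CPM with DHA and 182, 303, 245, 189 and 57.8 CPM with DHA and BTC. The 2 DHA libraries of experiment 5 were the lowest of all 30, and in experiments 2, 3 and 4 the mean of the DHA libraries lay above that of vehicle. LIG1 differed by -0.24 ± 0.23 on the log2 scale (SE; limma adjusted p = 0.568), with -2.06 in experiment 5 and 0.31 to 0.42 in experiments 2 to 4. FEN1, the flap endonuclease, stood at 0.02 with an interval from -0.46 to 0.49.

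In deoxynucleotide supply, TYMS, the enzyme that makes thymidylate, and RRM1, the large subunit of ribonucleotide reductase, were called lower. TYMS was at 356, 350.2, 251.4, 300.2 and 379.9 CPM in Veh+Veh and 393, 348, 222, 314 and 412 CPM in Veh+BTC of experiments 1 to 5. It was at 268, 284, 241, 210.3 and 376 CPM with oleic acid and 268, 302, 363, 330.2 and 394 CPM with oleic acid and BTC. It was at 255, 284, 268, 214 and 267 CPM with DHA and 282, 207, 191, 219 and 242 CPM with DHA and BTC. Both DHA libraries lay below both vehicle libraries in every experiment but the third, where DHA+Veh was above both. The log2 difference was -0.44 ± 0.11 (SE; 1.36-fold lower; limma adjusted p = 0.00822; lower in 5 of 5 experiments). TYMS shares exonic bases with the genes ENOSF1 and TYMSOS on the other strand in GENCODE 29, with strand use in counting not given in the sources used here. RRM1 fell by 0.60 on the log2 scale (limma adjusted p = 0.0248), and RRM2, the small subunit, was at -0.14 (interval -0.38 to 0.10). The RRM1 call was kept in 3 of 16 other analyses and in none of the other scalings and tools, and was lost on leaving out any of 5 single libraries (the 4 vehicle and DHA libraries of experiment 4, and DHA+BTC 5).

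The S-phase regulators were not called. E2F1, the activator of many genes on this list, was at 127, 173, 509, 299 and 185 CPM in Veh+Veh and 188, 163, 452, 296 and 350.3 CPM in Veh+BTC of experiments 1 to 5. It was at 167, 159.9, 489, 369 and 234 CPM with oleic acid and 163, 148, 299, 253 and 189 CPM with oleic acid and BTC. It was at 159.9, 225, 262, 352 and 123 CPM with DHA and 122, 193, 269.7, 349 and 143 CPM with DHA and BTC. Both DHA libraries lay below both vehicle libraries in experiments 3 and 5 and above both in experiments 2 and 4. E2F1 differed by -0.28 ± 0.15 on the log2 scale (SE; interval -0.57 to 0.02; limma adjusted p = 0.24). The E-type cyclins, which drive CDK2 at the start of S phase, were at -0.24 (CCNE1) and -0.37 (CCNE2, median 0.864 CPM), and UHRF1, which guides maintenance methylation behind the fork, at -0.23, all with intervals that spanned 0.

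**Figure D2:**
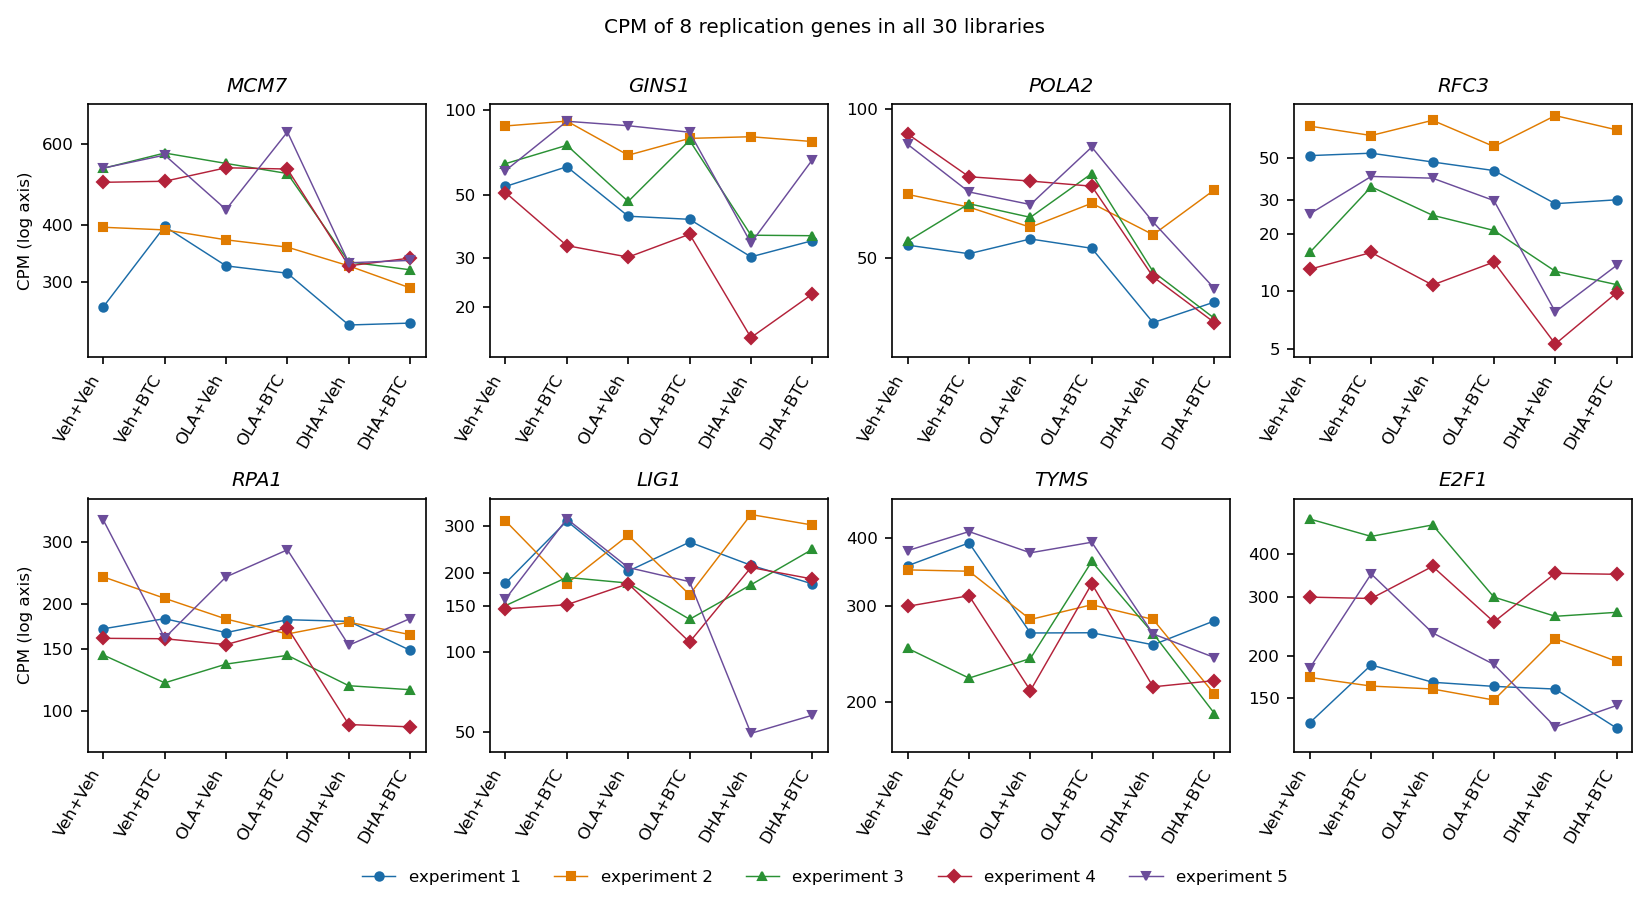
CPM on a log axis of the 8 genes given library by library, in the 6 groups, with 1 line and symbol per experiment. The lines drop at the DHA groups for MCM7 in all 5 experiments and for RFC3 in all but experiment 2. For LIG1 the drop is deep in experiment 5 and slight in experiment 1.

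In CPM the median fall of the 39 genes was shallowest in experiment 1 and deepest in experiments 4 and 5. The median of all genes tested was also lowest in experiments 4 and 5. The median log2 difference of the 39 genes was -0.17, -0.33, -0.42, -0.58 and -0.57 in experiments 1 to 5, against -0.03, -0.04, -0.11, -0.27 and -0.26 for all genes tested. The sign was the same in all 5 experiments for 15 of 39. The share of all genes with that trait is not given here, and their median was below 0 in every experiment. Both DHA libraries lay below both vehicle libraries in at least 4 of 5 experiments for 13 of 39 members, against 4.76% of all genes tested.

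Falls of MCM7, GINS1 and RFC3 were called in 15 of 16 other analyses, the exception being the fit without the experiment term, in which 0 of 39 were called. MCM4 and CDC6 were called in 5 of those 16 and MCM3 in 4, and MCM3 was lost on leaving out any of 10 single libraries. GINS2 was called in 8 of the 16, and CDT1 and TYMS in 9. All 3 were lost under median-of-ratios scaling and with edgeR, and GINS2 also under quantile normalization and with DESeq2. The count of 18 became 6 with 1 mean per experiment and pretreatment, 3 without the 3 shallowest libraries (MCM7, GINS1 and RFC3; median -0.31), 5 without experiment 4, 8 without experiment 5 and 11 without experiment 3. It became 9 under median-of-ratios scaling, 11 under quantile normalization, 11 with DESeq2 and 5 with edgeR on the recovered reads. Scaling also moved the median of all genes: it was -0.13 in CPM, -0.05 under median-of-ratios and -0.0018 under quantile normalization, and the members' median was -0.41, -0.30 and -0.30. The difference between the medians was -0.28, -0.26 and -0.30. Calls over all genes split into 352 higher and 1269 lower in CPM, 530 and 754 under median-of-ratios, 520 and 661 under quantile normalization, 454 and 496 with edgeR, and 645 and 740 with DESeq2. They are not given here for the fits with averaged or left-out libraries. For those fits, a loss of calls in general cannot be told apart from one in the members.

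DHA also lay below oleic acid, the other fatty acid given at the same dose. Of 39 genes, 17 fell and 0 rose (limma, averaged over BTC), where 11.4% of all genes tested were called (8.96% fell and 2.4% rose), and the median was -0.40 against -0.17. The 2 comparisons share the DHA libraries, so their values are set side by side only. RRM1 was at -0.88 ± 0.17 against oleic acid and -0.60 against vehicle, MCM10 at -0.75 and -0.67, GINS2 at -0.57 and -0.43, CDC6 at -0.58 and -0.47, and MCM7 at -0.53 and -0.56. POLE2, the epsilon subunit, was called here (-0.84, limma adjusted p = 0.0216), with 1 library of the 30 at 0 (DHA+Veh 5). The POLE2 call was kept in 7 of 16 other analyses. It was lost with edgeR, under quantile normalization, with 1 mean per experiment, without the 3 shallowest libraries and without any of experiments 2 to 5. POLA1 (-0.77, adjusted p = 0.056) and TYMS (-0.31, 0.0643) were not called by limma against oleic acid. The count was 5 with 1 mean per experiment, 6 without the 3 shallowest libraries, 7 without experiment 4 or experiment 5, 10 without experiment 3, and 0 without the experiment term. Under other scalings and tools it was 9 (median-of-ratios), 10 (quantile), 11 (DESeq2) and 7 (edgeR). Over all genes, 363 rose and 1356 fell in CPM, against 515 and 751 under median-of-ratios, 532 and 648 under quantile normalization, 484 and 481 with edgeR, and 669 and 748 with DESeq2. Calls over all genes in the fits with averaged or left-out libraries are not given here either.

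No replication gene was called with oleic acid. Against vehicle, averaged over BTC, limma called 0 of 39 and 0% of all genes tested, and 0 of 39 had an unadjusted p under 0.05. The median log2 difference of the 39 was -0.02 and the range -0.24 to 0.36. Intervals still allowed changes of some size: that of MCM7 ran from -0.23 to 0.17, that of POLA1 from -0.77 to 0.32 and that of FEN1, the highest, from -0.12 to 0.84. Under edgeR and DESeq2 the counts of calls and of unadjusted p-values under 0.05 were 0 as well. Split by BTC, 0 were called in each tool, and with BTC 4 had an unadjusted p under 0.05 in limma, 6 in edgeR and 6 in DESeq2.

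Split by BTC, the DHA comparison rests on 5 libraries a group and fewer calls were made. Without BTC, CDC6 (-0.84, limma adjusted p = 0.0133) and GINS1 (-0.85, 0.0259) fell, 2 of 39, where 1.54% of all genes were called (0.945% lower and 0.595% higher). With BTC, MCM7 (-0.65, limma adjusted p = 0.00703), TYMS (-0.54, 0.044), RFC3 (-0.89, 0.0479) and MCM5 (-0.73, 0.0494) fell, 4 of 39, where 3.55% of all genes were called (2.46% lower and 1.08% higher). The medians were -0.39 without and -0.44 with BTC. Over all genes 90 rose and 143 fell without BTC, and 164 and 373 with it, which median-of-ratios scaling turned to 113 and 81, and to 227 and 223. Both counts changed with the setting: edgeR called 0 in either, leaving out 1 library gave 0 (DHA+Veh 4 or DHA+Veh 5) to 4 (DHA+Veh 2) calls without BTC and 1 to 9 (DHA+BTC 2) with BTC, and the 4 calls with BTC became 0 without the 3 shallowest libraries or the 3 that stand apart below. Tested as an interaction, 0 of 39 differed between the conditions (limma, edgeR and DESeq2; 0% of all genes in limma). At an unadjusted p under 0.05 limma, edgeR and DESeq2 each had 2 of 39. The smallest p was that of CDC6, with a log2 difference of 0.76 between its DHA responses with and without BTC (interval 0.23 to 1.28; limma adjusted p = 0.983).

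BTC itself, a growth factor, was not followed by a called change of any replication gene. Limma, edgeR and DESeq2 called 0 of 39 averaged over pretreatments, after vehicle, after oleic acid and after DHA, where limma called 0% of all genes. Unadjusted p-values under 0.05 in limma numbered 0 averaged, 4 after vehicle, 0 after oleic acid and 1 after DHA, and with edgeR and DESeq2 0, 5, 0 and 1 each. The averaged median was -0.02 and the range -0.39 (FEN1) to 0.32. After vehicle the 4 genes were FEN1 (-0.97, interval -1.65 to -0.30), MCM2 (-0.63, -1.19 to -0.07), POLD1 (0.63, 0.09 to 1.18) and MCM5 (0.47, 0.04 to 0.90), with limma adjusted p-values of 0.445 to 0.478. The interaction of oleic acid with BTC gave 0 calls in each tool and 3 of 39 at an unadjusted p under 0.05 in limma, 5 in edgeR and 5 in DESeq2.

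The BTC values of FEN1 and MCM2 rest on few libraries. FEN1 was at 674, 527, 472, 536 and 629 CPM in Veh+Veh of experiments 1 to 5 and at 114, 571, 421, 592 and 118 CPM in Veh+BTC. With oleic acid it was at 473, 567.9, 559, 356 and 603 CPM, and at 559.8, 599, 745, 687 and 243 CPM with BTC as well. With DHA it was at 575, 444, 562, 410.0 and 298 CPM, and at 596, 295, 462, 419 and 206 CPM with BTC. Veh+BTC of experiments 1 and 5 stood far below every other vehicle or oleic acid library, OLA+BTC 5 was the next lowest of these, and experiment 5 was low with DHA too. FEN1 shares exonic bases with FADS2 and TMEM258 in GENCODE 29.

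MCM2 was low in the same libraries. It was at 384, 255, 628, 434 and 339.9 CPM in Veh+Veh and 112, 307, 500.0, 497 and 119 CPM in Veh+BTC. It was at 279.7, 237, 311, 335 and 388 CPM with oleic acid and 305, 294, 589, 532 and 128 CPM with oleic acid and BTC. It was at 315, 344, 458, 545 and 198 CPM with DHA and 314, 195, 324, 411 and 179 CPM with DHA and BTC. The 3 lowest of its 30 values were Veh+BTC 1, Veh+BTC 5 and OLA+BTC 5. UHRF1 was low there too, at 6.84 CPM in Veh+BTC 1 against 36.5 in Veh+Veh 1, 4.36 in Veh+BTC 5 against 29.9 in Veh+Veh 5, and 10.9 in OLA+BTC 5 against 23.5 in OLA+Veh 5. UHRF1 was also below its OLA+BTC 5 value in libraries where FEN1 and MCM2 were not so low. Among them were Veh+BTC 3 (7.98 CPM), OLA+Veh 4 (4.79) and DHA+BTC 4 (3.57). MCM6 was lower in Veh+BTC 1 and Veh+BTC 5 than in Veh+Veh (14.8 against 38.7 and 14.5 against 28.2 CPM), and PCNA was 111 against 369 CPM in experiment 1. In the same Veh+BTC libraries other members were higher: MCM5 was 136 CPM in Veh+BTC 1 against 71.3 in Veh+Veh 1, and 214 in Veh+BTC 5 against 125 in Veh+Veh 5. POLD1 was 44.2 against 19.3 and 77.0 against 44.8 CPM in the same pairs. In OLA+BTC 5, MCM5 was at 134 against 120.3 CPM in OLA+Veh 5, and POLD1 at 34.0 against 39.99. Over all genes with a mean of at least 20 CPM, Veh+BTC 1 lay farthest of the 30 libraries from its fitted values (root mean square 0.55 on the log2 scale). Without the 3 libraries, a choice made after seeing these data, 17 of the 18 genes were called lower with DHA against vehicle, with a median of -0.47 for the 39. All 3 were libraries without DHA, picked for low FEN1 and MCM2. Leaving them out can itself deepen the difference, so this fit is no separate support for the calls.

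**Figure D3:**
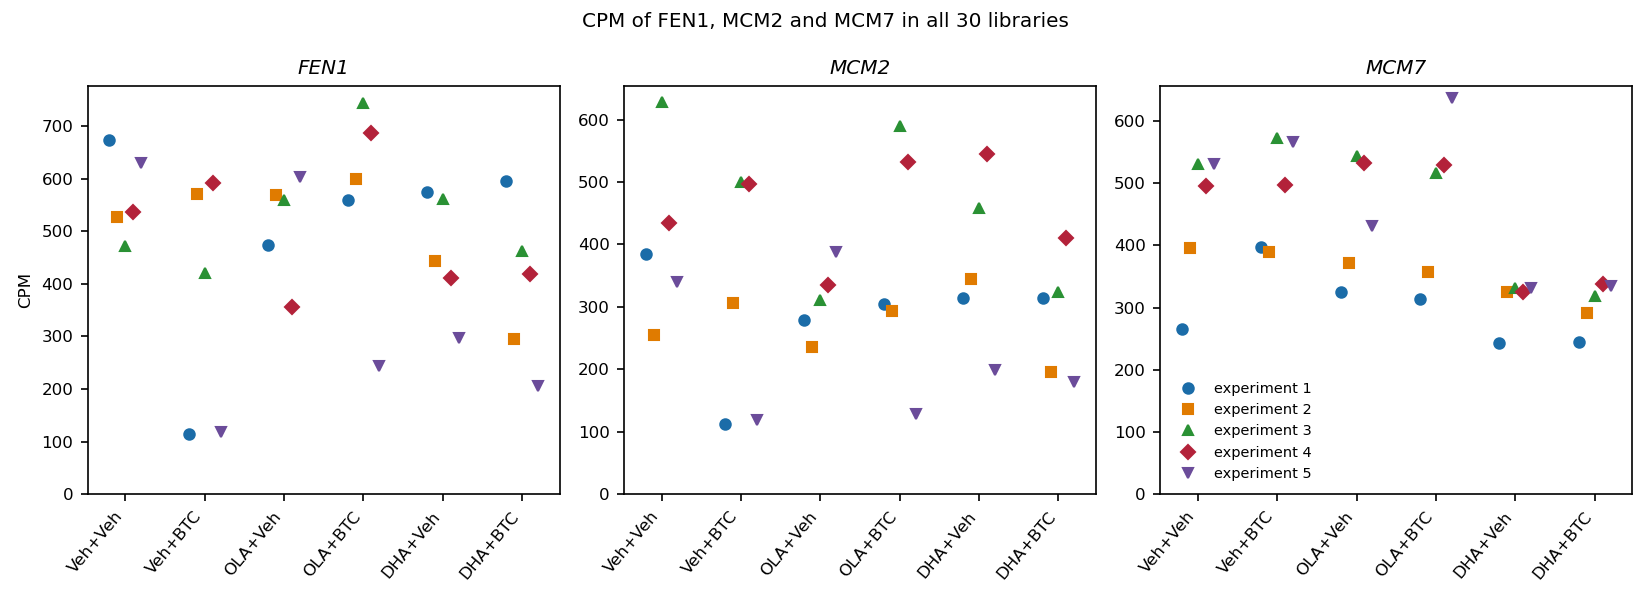
CPM of FEN1, MCM2 and MCM7 in all 30 libraries by group, with symbol and colour for the experiment. FEN1 and MCM2 drop to between 112 and 119 CPM in Veh+BTC of experiments 1 and 5 while MCM7 does not drop there, and MCM7 lies lower in both DHA groups.

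Most replication genes varied more between experiments than between the 6 groups, a trait that the median shares of all genes tested also showed. The median share of a member's log2 variance was 50.3% between experiments and 15.7% between the 6 groups, against 47.7% and 11.3% over all genes tested, and 30 of 39 varied more between experiments than between groups. RFC1 was the extreme, with 88.4% between experiments: it averaged 103 ± 19.7 CPM in experiment 1, 129 ± 22.1 in experiment 2, 30.9 ± 6.19 in experiment 3, 19.5 ± 8.64 in experiment 4 and 32.7 ± 10.3 in experiment 5 (SD, n = 6 each). RFC3 averaged 42.2 ± 10.5, 71.1 ± 9.23, 20.1 ± 9.04, 11.5 ± 3.78 and 25.9 ± 13.1 CPM in the same order. E2F1 ran the other way, at 155 ± 25.3, 177 ± 28.0, 380.4 ± 115, 319.7 ± 44.3 and 204 ± 81.4 CPM. POLA2, TYMS, MCM7, MCM5, GINS2, POLE2, RFC2, POLD1 and FEN1 were the 9 that varied more between groups. All 12 libraries of experiments 1 and 2 lay above all 12 of experiments 3 and 4 for 4 members (MCM4, POLA1, RFC1 and RFC4), against 16.8% of all genes, and below for 1, E2F1, against 2.54%. The labels do not say what sets the experiments apart.

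**Figure D4:**
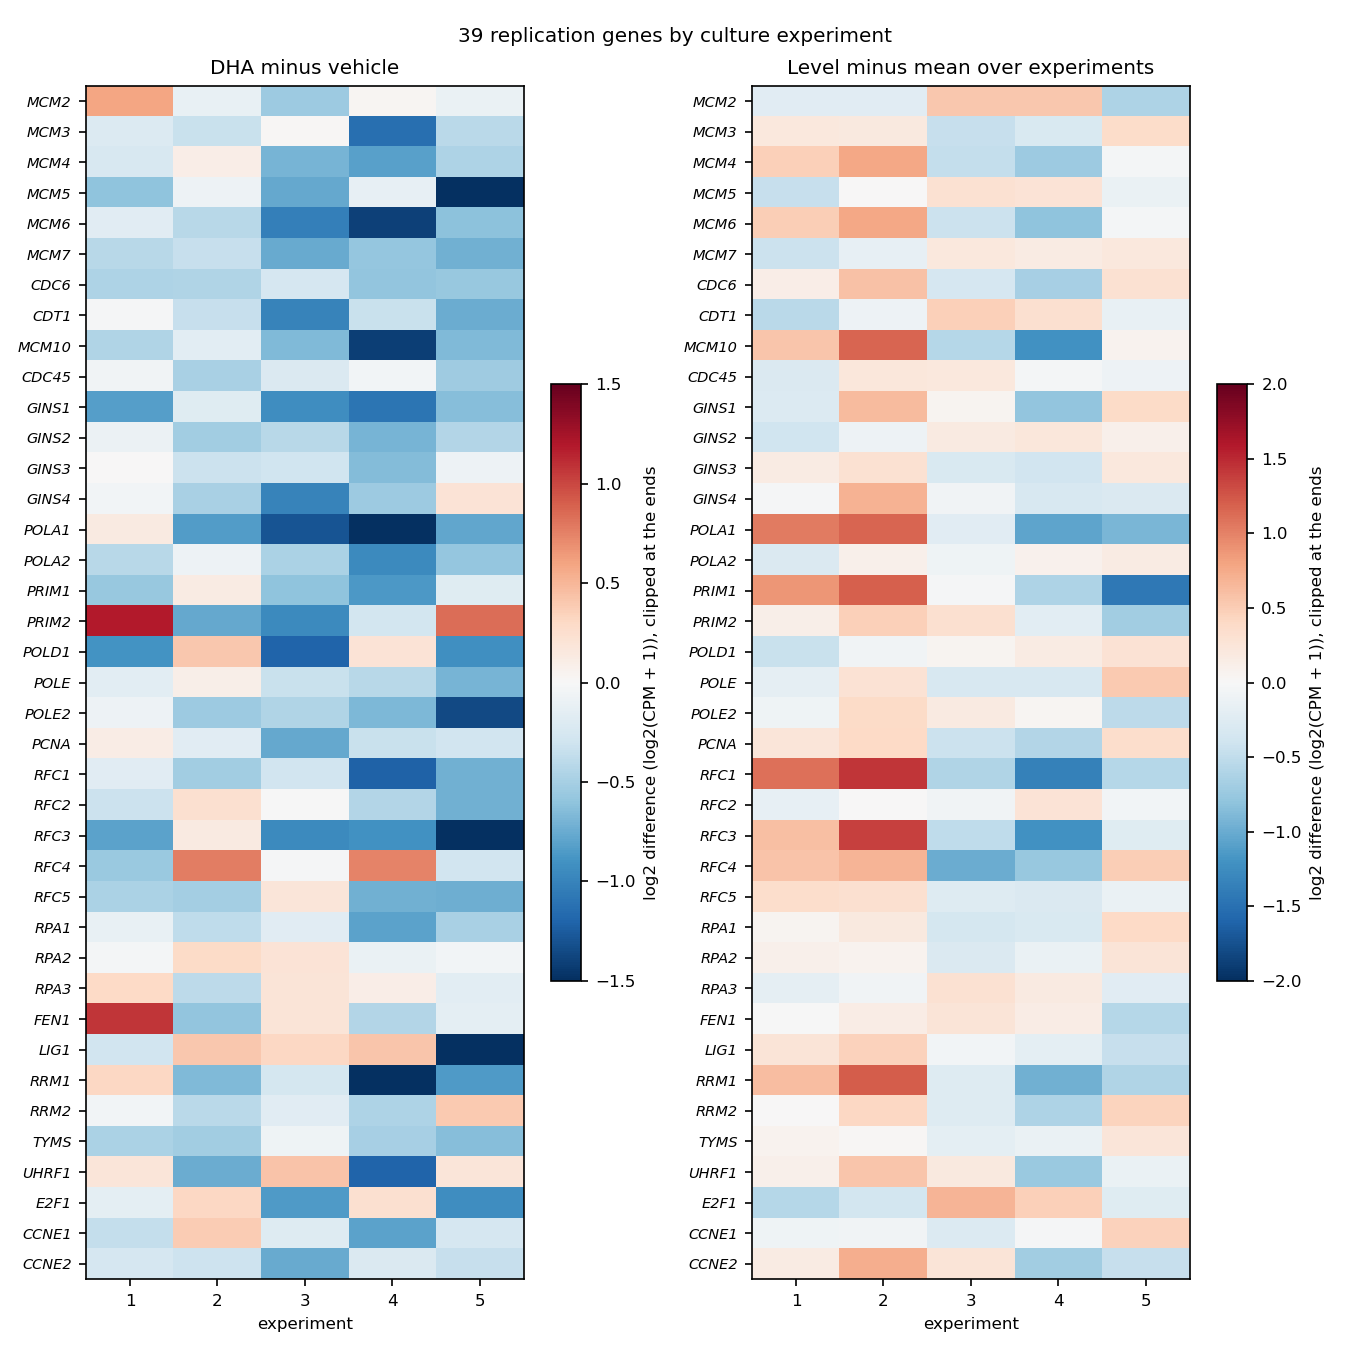
Heat maps of the 39 genes in the 5 experiments: on the left the log2 difference of DHA from vehicle within each experiment, on the right the mean level of each experiment minus the mean over experiments, both on the log2(CPM + 1) scale. On the left most cells are blue (lower with DHA), most deeply in experiments 3 to 5; on the right RFC1, RFC3, MCM10 and POLA1 are red in experiments 1 and 2, and E2F1 is red in experiments 3 and 4.

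Other replication genes, listed by role but with earlier results of these data known, were mostly lower with DHA too. Of 49 tested, 12 fell and 0 rose against vehicle (limma), where 8.38% of all genes tested fell and 2.33% rose. The median of the 49 was -0.32, and 41 lay below 0. The smallest p-values were those of CHTF18, part of an alternative clamp loader (-0.85, limma adjusted p = 0.000354), CLSPN, a fork and checkpoint mediator (-0.97, 0.000378), and DTYMK, the thymidylate kinase downstream of TYMS (-0.66, 0.000846). By role, 3 of 5 nucleotide supply genes, 3 of 8 chromatin assembly genes, 3 of 12 fork genes, 2 of 9 E2F family and S-phase kinase genes and 1 of 15 origin genes fell. Against oleic acid 15 of 49 fell, where 8.96% of all genes tested fell. The count of the 49 that fell against vehicle was 8 under median-of-ratios scaling and 9 under quantile normalization. It was 8 with edgeR, 9 with DESeq2 and 6 without the 3 shallowest libraries.

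Genes of the neighbouring phases moved as well. Of 20 mitotic genes, 10 fell with DHA against vehicle and 0 rose, where 8.38% of all genes tested fell and 2.33% rose. The median of the mitotic genes was -0.58, with 20 of 20 below 0. TOP2A, the topoisomerase that untangles sister DNA, was at -1.24 ± 0.17 (limma adjusted p = 1.73e-05), TPX2, a spindle assembly factor, at -0.82 (0.000461) and the proliferation antigen MKI67 at -0.85 (0.000513). Against oleic acid 14 of 20 mitotic genes fell, where 8.96% of all genes tested fell. Of 12 genes of G1 control, CDKN1A, the CDK inhibitor p21, rose by 0.79 ± 0.15 on the log2 scale (limma adjusted p = 0.000886), and the inhibitor CDKN2C (-0.96, 0.000559) and the pocket protein RBL2 (-0.71, 0.0388) fell. The fall of RBL2 was not called under either other scaling, by edgeR (adjusted p = 0.103) or by DESeq2. Under the other scalings and tools 7 or 8 mitotic genes fell, 5 without the 3 shallowest libraries and 0 without the experiment term. Whether the lists differ from one another was not tested.

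**Figure D5:**
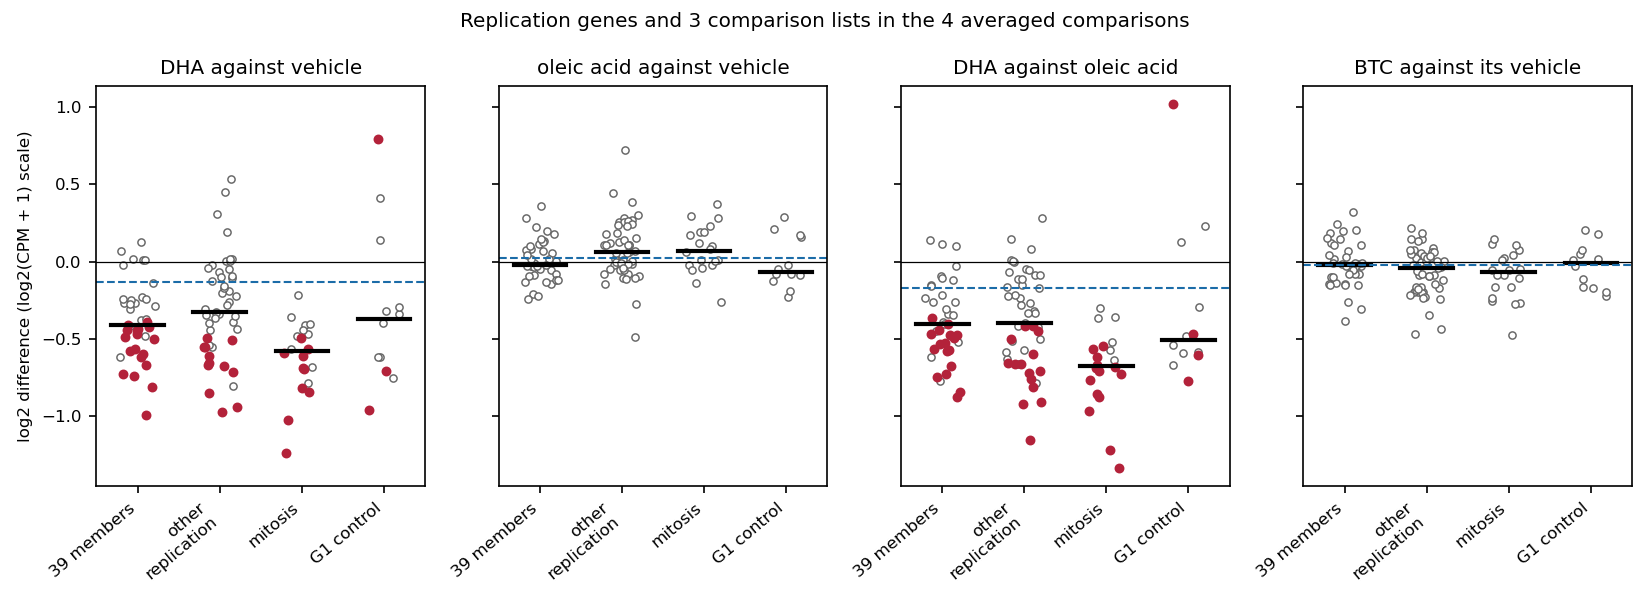
Log2 differences (log2(CPM + 1) scale) of single genes in the 39 replication genes, 49 other replication genes, 20 mitotic genes and 12 G1 genes, in 4 comparisons averaged over the other factor. Red points are called, black bars are list medians and the dashed line is the median of all genes tested: list medians lie below that line in both panels with DHA, and no point is red for oleic acid or BTC.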

How the data were processed

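RNA from LX2 cells was sequenced as 30 libraries (6 groups, 5 experiments) with a QuantSeq 3′ kit, per the labels' protocols. STAR 2.5.3a and HTSeq 0.6.0 are named in the submitters' processing notes; genome build, annotation and strand setting are not given in the sources used here. The authors deposited CPM per Ensembl gene, which sum to 1000000 in each library. The CPM steps gave back whole reads for 100% of values (tolerance 0.01 read), on which edgeR 4.0.16 and DESeq2 1.42.0 were run as alternatives. DESeq2 adjusted p-values given as NA were kept so.

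Genes with at least 1 CPM in at least 5 libraries were tested with limma 3.58.1 (R 4.3.3) on log2(CPM + 1), all groups in 1 fit, with the experiment as a term. Calls need a Benjamini-Hochberg adjusted p under 0.05 over all 15137 genes tested, and intervals are at 95%. Fold changes are on the log2(CPM + 1) scale and understate low genes. Symbols were found for 99.8% of identifiers. The labels number the experiments, and residuals of 75 pairs of libraries of the same experiment correlated at 0.119 or more (median 0.507, against -0.169 between experiments). Whether experiments were separate cultures is not said, so the p-values reflect only how these libraries vary, which may be technical.

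Members and lists were chosen with earlier results of these data known. Every library's value is given for the member with the smallest p in 8 roles (not for UHRF1, alone in its role), and from other lists up to 3 genes with the smallest p are named; FEN1 and MCM2 by library and the 3 libraries low in FEN1 and MCM2 were chosen after values were seen. The steps were tested on simulated data. In GENCODE 29, 18 of 39 members share exonic bases with another gene (5 on the same strand, 15 on the opposite), MCM7 with AP4M1 among them, and may share reads. Figures were drawn with Python 3.11.15. Alternatives were other pseudocounts, filters, scalings, tools, terms and left-out libraries.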

Additional observations from a re-analysis of the deposited data

Results flagged for a closer look

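In 7 of 234 groups of 5 libraries (39 genes in 6 groups), 1 library stood far from the other 4 by Dixon's ratio, where chance gives about 1 in 20, or 11.7. MCM3 was at 209 CPM in Veh+BTC 3, against 336 to 386 in the other libraries of its group. MCM5 was at 71.3 CPM in Veh+Veh 1, against 122 to 147. MCM6 was at 32.6 CPM in Veh+BTC 2, above the others at 14.5 to 18.3. MCM7 was at 242 CPM in DHA+Veh 1, against 326 to 332, in an experiment whose Veh+Veh library was also the lowest of its group. POLA2 was at 68.8 CPM in DHA+BTC 2, above the others at 37.0 to 43.4. POLE2 was at 0 CPM in DHA+Veh 5, the second shallowest library, against 2.72 to 5.10. FEN1 was at 243 CPM in OLA+BTC 5, against 559.8 to 745.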

How the results depend on the processing

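Of the 39 genes, 18 were called for DHA against vehicle and 17 against oleic acid, averaged over BTC. These counts were 9 and 9 under median-of-ratios scaling, 11 and 10 under quantile normalization, 5 and 7 with edgeR, 11 and 11 with DESeq2, 6 and 5 with 1 mean per experiment, and 3 and 6 without the 3 shallowest libraries. Without the replicate block (the experiment pairing) both were 0, as were the counts for DHA split by BTC; the limma adjusted p of MCM7 for DHA against vehicle, averaged, was then 0.109. Leaving out 1 experiment or library gave 5 to 19 and 7 to 18. Without BTC, the 2 calls for DHA became 1 under median-of-ratios scaling, quantile normalization and without the 3 shallowest libraries, 0 with edgeR and with only the groups compared, 4 without the 3 libraries low in FEN1 and MCM2 (chosen after seeing the data), and 0 to 4 on leaving out 1 experiment or library. With BTC, the 4 calls became 1 with no filter and under quantile normalization, 2 with DESeq2, 0 under median-of-ratios scaling, with edgeR, with only the groups compared, without the 3 shallowest libraries and without the 3 low in FEN1 and MCM2, and 0 to 9 on leaving out 1 experiment or library. The cause was not tested, and calls over all genes are not set beside the counts of this section. The other 9 comparisons had 0 members called in every setting run. No called result changed sign. Depth limits PRIM1, PRIM2, POLE2, CCNE2 and POLA1, which lie near the floor of 3 reads in the shallow libraries.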
